A study of Mus musculus with 6 samples.

Results

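The nuclear-encoded subunits of the mitochondrial respiratory chain were examined complex by complex in lumbar dorsal root ganglia (DRGs) that lacked HDAC4, a class IIa histone deacetylase, in Nav1.8-expressing neurons. Members were taken by gene symbol (Nduf a, b, c, s and v subunits, Sdh a to d, and all Uqcr, Cox4 to Cox8 and Atp5 symbols), which gave 80 of the 22180 genes with a probe set of their own. Of these, 33 belong to complex I, 4 to complex II, 8 to complex III, 17 to complex IV and 18 to complex V. The set holds 69 ubiquitous subunits, 8 tissue-restricted isoforms, 2 pseudogenes (*Atp5c1-ps* and *Uqcrh-ps1*) and *Cox7a2l*, a supercomplex assembly factor that is named like a subunit. Probe sets that carried several gene symbols, 10 of them with a symbol of this kind, were not used.

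RNA came from naïve adult (2-mo-old) C57Bl/6 mice of 2 groups with 3 arrays each. In HDAC4 Nav1.8 cKO mice, floxed *Hdac4* was deleted by a Cre recombinase driven from the Nav1.8 locus, which is active from embryonic development in a subset of sensory neurons that is mainly nociceptive, so that glia, vascular cells and the remaining neurons of the ganglion kept the gene. The HDAC4 fl/fl littermates (called wild-type here) carried the same floxed alleles without Cre. The values are log2 signals of Affymetrix Mouse Gene 2.0 ST arrays, already normalized by robust multichip averaging (RMA) when deposited. Fold changes are cKO minus wild-type on the log2 scale from limma, with p values adjusted by Benjamini-Hochberg across the 41345 probe sets. In whole ganglia, fewer cells of a type and less RNA per cell cannot be told apart. Whether each array came from a separate animal is not given in the labels, so the tests reflect the variation among these arrays, which may be technical.

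The respiratory chain passes electrons from NADH (complex I) and succinate (complex II) through complex III to oxygen at complex IV, and complex V, the ATP synthase, uses the proton gradient that complexes I, III and IV build. Most subunits are encoded in the nucleus and imported, whereas a small hydrophobic core is encoded by mitochondrial DNA. Sensory neurons have a high demand for mitochondrial ATP because of their long axons and their ion pumping. Several complex IV genes come in pairs, with a ubiquitous isoform and another made mainly in heart and skeletal muscle, lung or testis.

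The array medians were 6.43 to 6.50, which quantile normalization makes alike, so they say nothing of the depth of signal. Pairwise correlations between arrays were 0.987 to 0.994. All 12 pan-neuronal genes of a marker list had mean signals between 9.76 and 13.29. The nociceptor gene *Scn10a* was 12.30, 12.31 and 12.39 in the cKOs against 12.21, 12.49 and 12.20 in wild-type. Of 8 listed nociceptor genes, 6 were measured. Their log2 fold changes were positive for 3 and negative for 3, from -0.21 (*Tac1*) to 0.19 (*Mrgprd*), and none passed the adjusted test. *Hdac4* itself was 9.17, 9.14 and 9.21 in the cKOs and 9.22, 9.49 and 9.19 in wild-type DRGs (log2 fold change -0.13, SE 0.10, adjusted p = 0.776), and the groups overlapped. Which exons this probe set reads is not given in the table, and it was not used as a check of the labels. The cKO arrays differed among themselves in sex-linked genes. *Xist*, expressed from the inactive X chromosome, was 11.74, 6.67 and 5.95 in the cKOs and 11.60, 11.71 and 11.60 in wild-type, and the Y-linked genes *Kdm5d*, *Eif2s3y* and *Uty* were high in cKO replicates 2 and 3 only. Sex and genotype could therefore be told apart only through cKO replicate 1, and values without that array and with sex as a covariate are given beside the results described most fully.

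No member passed the test. The smallest adjusted p among the 80 members was 0.635 (limma), and the background was likewise 0 of 41345 probe sets, or 0.0%. At an unadjusted p under 0.05, 5 members had higher and 2 had lower signals in the cKOs, against 5.48% of all genes in either direction (2.67% higher and 2.8% lower). The higher ones were *Sdhb*, *Cox4i1*, *Cox6a2*, *Atp5e* and *Atp5g2*, and the lower ones were *Atp5c1* and *Atp5h*. The groups did not overlap for 14 members (17.5%), 8 higher and 6 lower, against 13.7% of all genes (6.3% higher and 7.4% lower). For 75 of the 80 members (93.8%), the 95% confidence interval stayed between -0.5 and 0.5, compared with 87.3% of all genes. The remaining 5 were *Cox8b*, *Cox6a2*, *Cox7a1*, *Cox4i1* and the pseudogene *Uqcrh-ps1*.

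**Figure D1:**
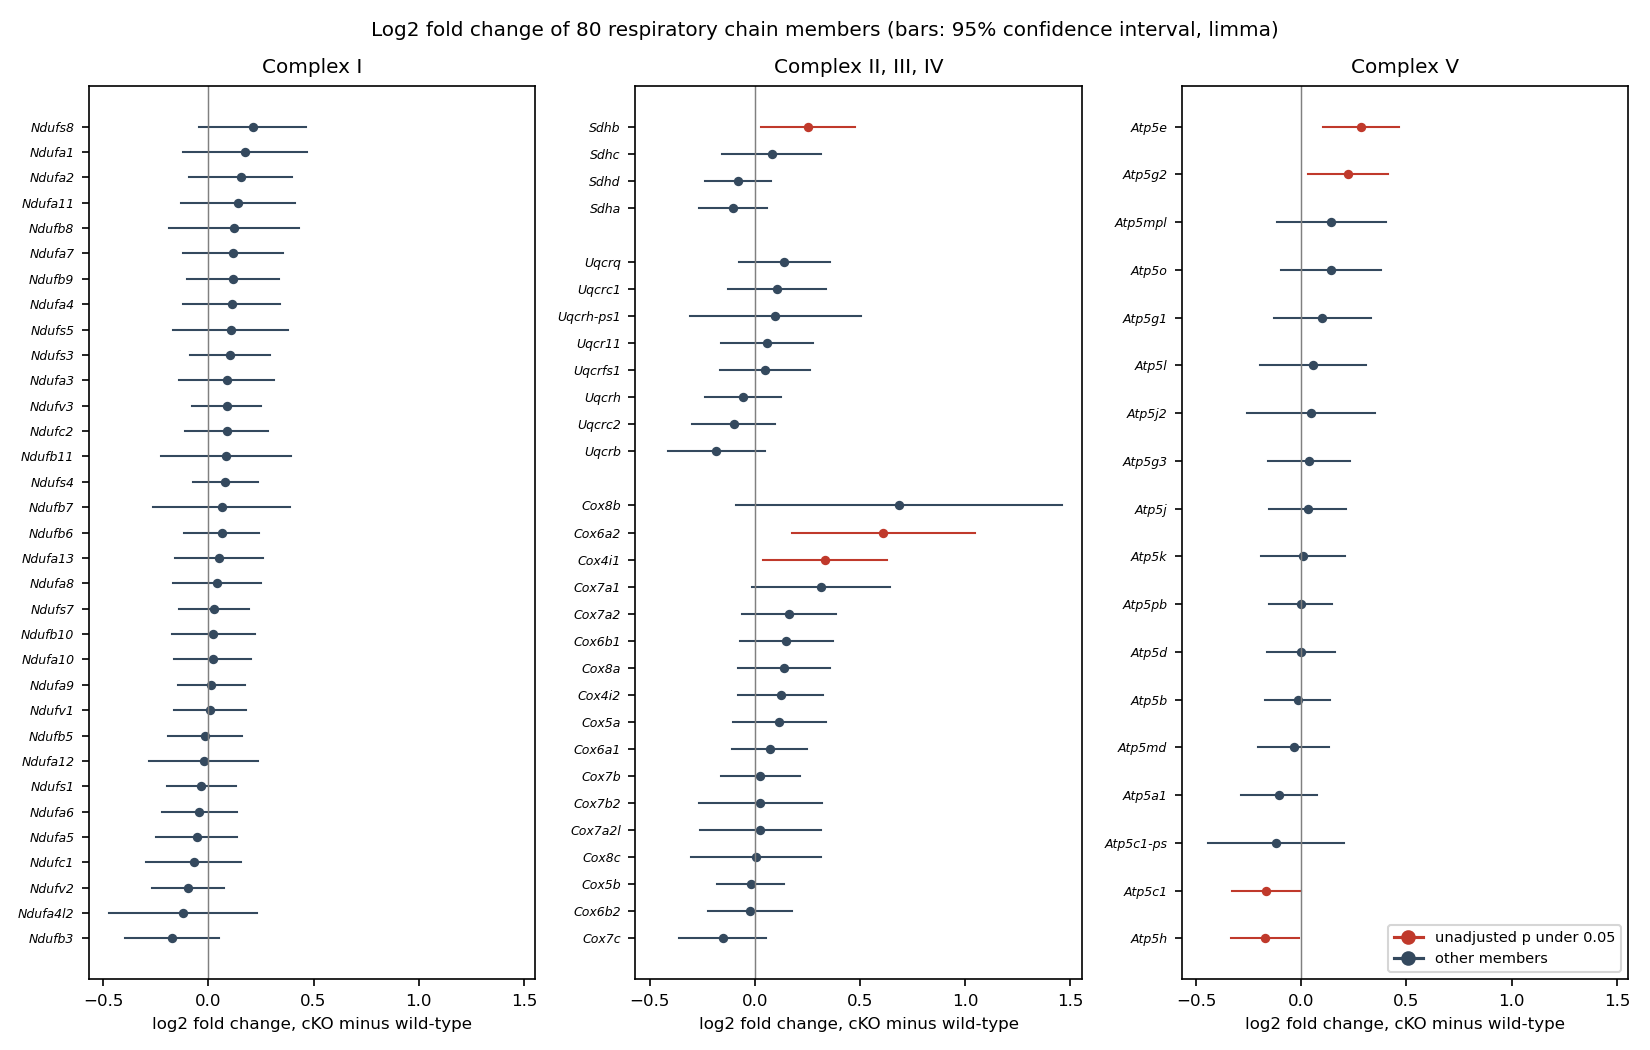
Log2 fold change (cKO minus wild-type, x axis) of each of the 80 members by complex, with 95% confidence intervals from limma. Most points lie within 0.25 of 0, the 7 members at an unadjusted p under 0.05 are drawn in red, and *Cox8b* and *Cox6a2* of complex IV lie farthest to the right, at 0.68 and 0.61.

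The fold change was positive for 55 members and negative for 25, and 50.7% of all genes were positive. The median was 0.05 over the members and 0.00 over all genes. By array, the median deviation of the 80 members from their own means was -0.05, 0.02 and 0.07 in cKO replicates 1, 2 and 3, and 0.00, -0.05 and -0.02 in the wild-type replicates. The ranges of the groups overlapped, since cKO replicate 1 lay below all wild-type arrays but replicate 2. Without that array the median was 0.09, and 14 members were higher and 3 lower at an unadjusted p under 0.05, with 4.95% of all genes higher and 4.33% lower in the same fit. With sex as a covariate it was -0.02, 32 members had positive values, and 0 members were higher and 2 lower at an unadjusted p under 0.05, where 3.88% of all genes were higher and 3.02% lower.

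**Figure D2:**
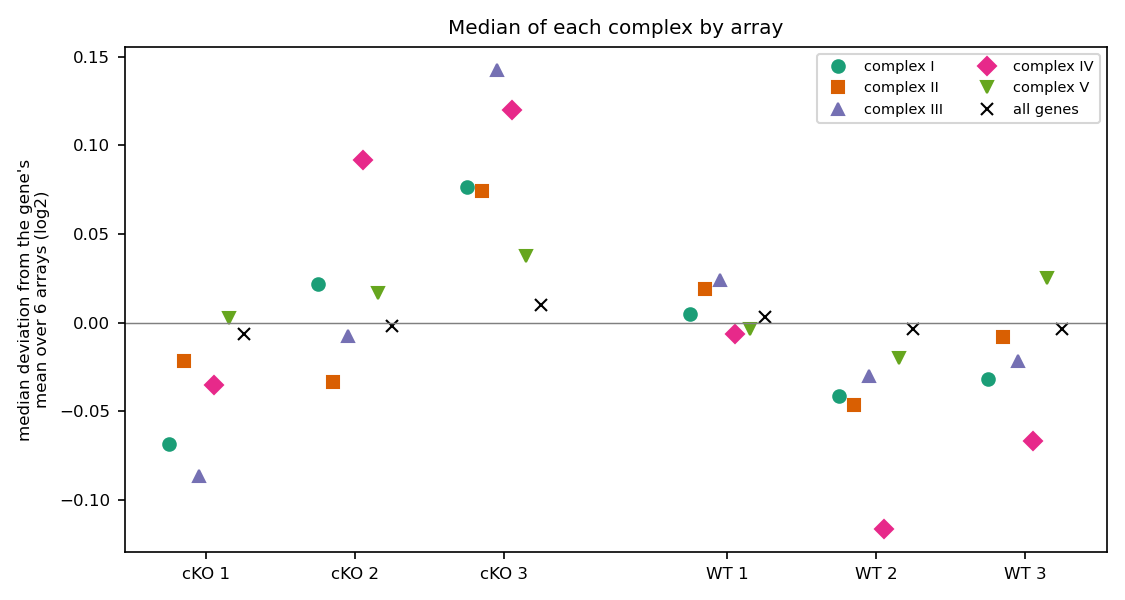
Median deviation of the members of each complex from their mean over the 6 arrays (log2, y axis), for each cKO and wild-type array (x axis), with the median of all genes as crosses. Complex IV has the widest span, with 0.12 in cKO replicate 3 and -0.12 in wild-type replicate 2, and cKO replicate 1 lies below 0 for all complexes except V.

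Complex I, the NADH dehydrogenase, had 33 members with a median log2 fold change of 0.06, 24 of them positive, and a range from -0.17 (*Ndufb3*) to 0.21 (*Ndufs8*). None had an unadjusted p under 0.05, and no confidence interval reached past 0.5 in size. Among the core subunits, *Ndufv1*, which binds NADH and FMN, was 10.92, 10.90 and 10.96 in the cKOs against 10.96, 10.84 and 10.96 in wild-type, a difference of 0.01 (95% confidence interval -0.16 to 0.18). *Ndufs1*, the largest iron-sulfur subunit, was 10.20, 10.11 and 10.09 in the cKOs and 10.15, 10.20 and 10.15 in wild-type. The groups overlapped almost wholly for *Ndufv1*, whereas for *Ndufs1* cKO replicates 2 and 3 lay below all wild-type arrays. *Ndufv2* was 0.10 lower (SE 0.07, adjusted p = 0.767), *Ndufs3* was 0.10 higher (SE 0.08, adjusted p = 0.773) and *Ndufs7* differed by 0.03. *Ndufs8*, an iron-sulfur subunit close to the quinone site, was 10.72, 11.03 and 11.01 in the cKOs against 10.79, 10.63 and 10.71 in wild-type (log2 fold change 0.21, SE 0.11, unadjusted p = 0.0917, adjusted p = 0.696). Its high values were those of cKO replicates 2 and 3, whereas cKO replicate 1 lay inside the wild-type range; the difference was 0.31 without that array and 0.01 with sex as a covariate.

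Accessory subunits of complex I stand around this core and are needed for its assembly and stability. *Ndufs4* was 11.85, 11.78 and 11.83 in the cKOs and 11.76, 11.74 and 11.72 in wild-type, without overlap but with a difference of only 0.08 (SE 0.06). *Ndufv3* was also higher in all cKO arrays, by 0.09, and *Ndufb3* was lower in all of them, at 8.49, 8.41 and 8.20 against 8.54, 8.58 and 8.50 in wild-type. These were the 3 complex I members whose groups did not overlap (9.09% of the 33, against 13.7% of all genes). Without cKO replicate 1 the differences of *Ndufs4*, *Ndufv3* and *Ndufb3* were 0.065, 0.115 and -0.235. With sex as a covariate they were 0.11, 0.03 and -0.05. *Ndufa2* and *Ndufa11* had differences of 0.15 and 0.14 (0.06 and -0.04 with sex as a covariate), and *Ndufv2* and *Ndufc1* were the lowest of the ubiquitous members after *Ndufb3*, at -0.10 and -0.07. *Ndufa4*, which in later work was assigned to complex IV, was 0.11 higher (-0.07 with sex as a covariate), and its paralog *Ndufa4l2*, known from hypoxic cells and pericytes, was 0.12 lower with the widest interval of the group (-0.47 to 0.23).

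The X-linked members were *Ndufa1* and *Ndufb11* of complex I and *Cox7b* of complex IV. *Ndufa1* was 8.29, 8.72 and 8.62 in the cKOs against 8.33, 8.34 and 8.44 in wild-type, a difference of 0.17 with all arrays, 0.30 without cKO replicate 1 and -0.08 with sex as a covariate. The high cKO values were in the same arrays as the low *Xist* values. *Ndufb11* was high in cKO replicate 2 alone (7.76, with the other 5 arrays between 7.31 and 7.46), and *Cox7b* ranged from 11.80 to 11.91 in the cKOs and from 11.73 to 11.90 in wild-type. The part of sex in these values was not tested beyond the covariate.

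Complex II, the succinate dehydrogenase, is the only complex without a mitochondrially encoded subunit and also serves in the tricarboxylic acid (TCA) cycle. Its 4 subunits differed in sign. *Sdhb*, the iron-sulfur subunit, was 9.87, 10.04 and 10.17 in the cKOs against 9.79, 9.75 and 9.78 in wild-type (log2 fold change 0.25, SE 0.09, unadjusted p = 0.0310, adjusted p = 0.647, exact permutation p = 0.1, the smallest that 3 against 3 arrays can give). The wild-type values were close together, and the cKO values spread upward from just above them. The difference was 0.33 without cKO replicate 1 and 0.10 with sex as a covariate. *Sdha*, the flavoprotein subunit, was lower in every cKO array, at 11.33, 11.29 and 11.36 against 11.38, 11.45 and 11.46 in wild-type (difference -0.10, SE 0.07, adjusted p = 0.741). *Sdhd*, a membrane anchor, was 10.21, 10.20 and 10.14 in the cKOs and 10.26, 10.28 and 10.25 in wild-type, a difference of -0.08. *Sdhc*, the other anchor, overlapped (difference 0.08).

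Complex III, the cytochrome bc1 complex, had 8 members with a median of 0.05, no member at an unadjusted p under 0.05 and none without overlap. *Uqcrc1* and *Uqcrc2*, the core proteins, had differences of 0.10 and -0.10 (-0.07 and 0.03 with sex as a covariate). *Uqcrfs1*, the Rieske iron-sulfur protein, was 7.63, 7.71 and 7.87 in the cKOs against 7.69, 7.62 and 7.76 in wild-type, with overlap and with cKO replicate 3 above all other arrays (difference 0.05). The extremes were *Uqcrq*, a small subunit, at 0.14 (-0.02 with sex as a covariate) and *Uqcrb*, which lies near the ubiquinone site, at -0.18. *Uqcrb* was 11.90, 11.64 and 11.61 in the cKOs and 11.86, 11.91 and 11.93 in wild-type, again with cKO replicate 1 among the wild-type values. Its difference was -0.28 without cKO replicate 1 and 0.00 with sex as a covariate. *Uqcrh*, the hinge protein, differed by -0.06.

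Complex IV, the cytochrome c oxidase, had the highest median, 0.12, with 14 of 17 members positive and a range from -0.15 (*Cox7c*) to 0.68 (*Cox8b*). With sex as a covariate this median was 0.04. The 9 ubiquitous subunits of complex IV alone had a median of 0.12, with 7 positive. Their median was 0.01 with sex as a covariate. *Cox4i1*, the ubiquitous isoform of the largest nuclear-encoded subunit, was 10.70, 10.99 and 11.16 in the cKOs against 10.64, 10.60 and 10.61 in wild-type (10.95 ± 0.23 and 10.62 ± 0.02, mean ± SD, n = 3 each). The log2 fold change was 0.33 (SE 0.12, 95% confidence interval 0.04 to 0.63, unadjusted p = 0.0317, adjusted p = 0.651 from limma). The wild-type arrays were nearly identical, and the spread was in the cKOs. The difference was 0.46 without cKO replicate 1 and 0.08 with sex as a covariate. *Cox5a* and *Cox5b*, the subunits on the matrix side, had differences of 0.12 and -0.02. In the probe set used, *Cox5b* lay between 11.04 and 11.14 in all 6 arrays. Its second, dimmer probe set gave -0.30 (mean signal 6.84). *Cox6b1*, *Cox7a2* and *Cox8a* had positive differences of 0.15, 0.16 and 0.14 with overlapping groups, and with sex as a covariate these were 0.07, 0.02 and 0.04. *Cox7c* was lower in every cKO array, at 7.74, 7.60 and 7.77 against 7.81, 7.97 and 7.79 in wild-type (difference -0.15, SE 0.09, adjusted p = 0.711).

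The 3 isoforms known from heart and skeletal muscle were, with *Cox4i1*, the 4 members with the largest positive differences. *Cox6a2* was 6.87, 7.43 and 7.33 in the cKOs against 6.69, 6.34 and 6.77 in wild-type (7.21 ± 0.30 and 6.60 ± 0.23, mean ± SD, n = 3 each), a log2 fold change of 0.61 (SE 0.18, 95% confidence interval 0.18 to 1.04, unadjusted p = 0.0133, adjusted p = 0.640). All cKO arrays lay above all wild-type arrays, although cKO replicate 1 was close to the highest of them. *Cox8b*, which is also typical of brown fat, was 6.62, 7.97 and 7.09 in the cKOs against 6.42, 6.51 and 6.70 in wild-type (log2 fold change 0.68, SE 0.32, interval -0.09 to 1.46, adjusted p = 0.688). The group difference came mostly from cKO replicate 2, and cKO replicate 1 was inside the wild-type range. *Cox7a1* was 7.35, 7.72 and 7.71 in the cKOs against 7.43, 7.10 and 7.31 in wild-type (log2 fold change 0.31, SE 0.14, adjusted p = 0.674), with cKO replicates 2 and 3 above all other arrays. Without cKO replicate 1 the differences were 0.78, 0.99 and 0.43 for *Cox6a2*, *Cox8b* and *Cox7a1*, and with sex as a covariate they were 0.27, 0.08 and 0.07.

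**Figure D3:**
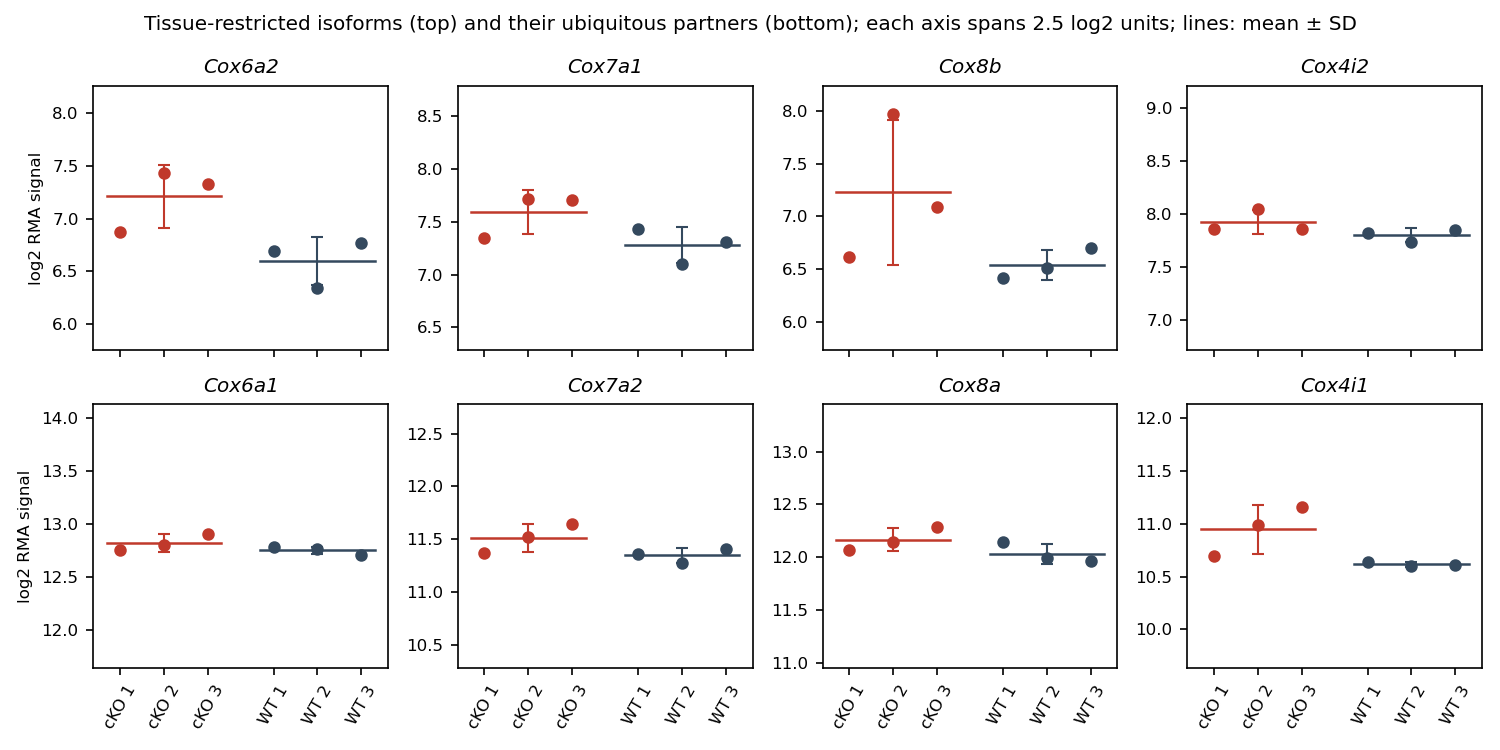
Log2 RMA signal (y axis, 2.5 units in each panel) of 4 tissue-restricted complex IV isoforms (top) and their ubiquitous partners (bottom) in each cKO and wild-type array (x axis), with lines for the mean and bars for the SD (n = 3 each). *Cox6a2*, *Cox4i2* and *Cox4i1* have no overlap between groups, and the high *Cox8b* mean of the cKOs rests mostly on replicate 2 at 7.97.

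To compare a restricted isoform with its ubiquitous partner, the within-array difference between them was set against the groups for 8 pairs, with exact 2-sided permutation tests. *Cox6a2* exceeded the change of *Cox6a1* by 0.54 (0.61 and 0.07), without overlap (exact p = 0.1, the smallest possible, adjusted p = 0.4 over the 8 pairs). *Cox8b* exceeded *Cox8a* by 0.55 (exact p = 0.2) and *Cox7a1* exceeded *Cox7a2* by 0.15 (p = 0.3), both adjusted p = 0.4. *Cox4i2*, the oxygen-responsive isoform of lung, had a smaller value than *Cox4i1* (0.12 and 0.33, exact p = 0.2) although its own groups did not overlap, with 7.86, 8.05 and 7.86 in the cKOs against 7.82, 7.73 and 7.85 in wild-type. The testis isoforms *Cox6b2*, *Cox7b2* and *Cox8c* had log2 fold changes of -0.02, 0.03 and 0.01. The smallest adjusted p over all 8 pairs was 0.4, and with 3 arrays against 3 no pair could have passed a threshold of 0.05.

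Markers of muscle and fat, tissues from which these isoforms are known, were followed in the same arrays. Of 21 skeletal muscle genes, all measured, 20 had positive fold changes with a median of 0.97. At an unadjusted p under 0.05, 7 were higher (none after adjustment), against 2.67% of all genes. The mean deviation of the 21 genes was 0.34, 0.88 and 0.17 in the cKOs and -0.70, -1.06 and 0.37 in wild-type. This mean was lower in cKO replicate 3 than in wild-type replicate 3. Most of the 21 genes were lower in that cKO array, but *Myh1*, *Myh2*, *Mb*, *Tnnc2*, *Tnni2* and *Ryr1* were higher. *Cox6a2* (7.33 in that cKO array, 6.77 in that wild-type array) and *Cox7a1* (7.71 in the cKO array, 7.31 in the wild-type array) were also higher. Genes of oxidative or slow fibers did not share 1 pattern. *Myh2*, a myosin gene of oxidative fast fibers, was 6.96, 7.57 and 7.83 in the cKOs against 6.27, 5.91 and 6.54 in wild-type. These groups did not overlap (log2 fold change 1.21, adjusted p = 0.590 from limma). *Mb*, the myoglobin gene, was 7.62, 8.55 and 8.60 in the cKOs and 7.28, 7.29 and 7.58 in wild-type. With sex as a covariate the differences of *Myh2* and *Mb* were 0.72 and 0.24, against 1.21 and 0.87 without it. The slow myosin gene *Myh7* was 6.36, 6.59 and 6.10 in the cKOs against 6.08, 5.92 and 6.28 in wild-type, and the slow troponin gene *Tnnt1* was 5.78, 5.82 and 5.36 in the cKOs against 5.66, 5.61 and 5.93 in wild-type. *Myh4*, the myosin of the fastest fibers, was 9.60, 9.51 and 7.46 in the cKOs against 7.01, 5.85 and 9.53 in wild-type, with overlap. Among brown fat genes, 6 of 7 were measured with a median of 0.12, *Ucp1*, the uncoupling protein, was 6.01, 6.51 and 5.78 in the cKOs against 5.62, 5.57 and 5.64 in wild-type, and *Cidea*, a lipid droplet gene, was 6.15, 7.30 and 6.57 in the cKOs against 5.87, 6.29 and 6.61 in wild-type. *Ucp1*, *Cidea* and *Cox8b* were each highest in cKO replicate 2, and so were 6 of the 7 white fat markers measured, whereas the brown fat genes *Dio2* (6.16, 6.63 and 6.61 in the cKOs against 6.59, 6.74 and 6.32 in wild-type) and *Ppara* (7.26, 7.11 and 7.16 in the cKOs against 7.05, 7.22 and 7.17 in wild-type) were not. With sex as a covariate the median was 0.72 for the skeletal muscle genes, against 0.97 without it, and 20 of the 21 had positive values. The covariate median was 0.00 for the brown fat genes, against 0.12 without the covariate. For the white fat genes it was -0.08, against 0.20 without the covariate. None of these markers is listed at 0, a value the log2 scale does not reach here, and their part in the *Cox6a2*, *Cox7a1* and *Cox8b* values was not tested.

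**Figure D4:**
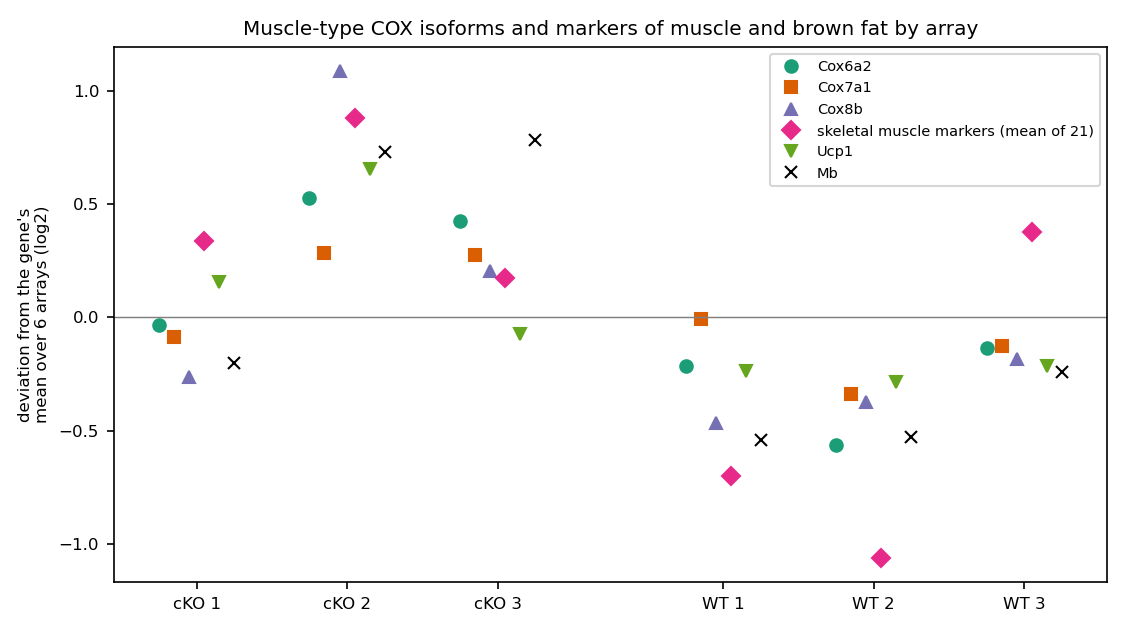
Deviation of *Cox6a2*, *Cox7a1*, *Cox8b*, the mean of 21 skeletal muscle markers, *Ucp1* and *Mb* from their own means over the 6 arrays (log2, y axis) in each cKO and wild-type array (x axis). Both isoforms and markers are high in cKO replicate 2, whereas in wild-type replicate 3 the mean of the muscle markers is at 0.37 and the isoforms, *Mb* and *Ucp1* are below 0.

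Promoter windows of 3 complex IV genes are shown to set a muscle-type isoform, *Cox8b*, beside its ubiquitous partner and the partner of *Cox6a2*. The windows run from 250 bases before to 50 bases after the annotated start and are from RefSeq (GRCm38.p6), written along the gene's strand. Capitals mark matches to 5 searched words on either strand, none of which contains another: CAGCTG (an E-box of the kind that myogenic factors bind), TATAAA, GCGCANGCG (the NRF1 word), CCGGAAG (the word of ETS factors such as GABP) and AAGATGGCG (the YY1 word). The window of *Cox8b* (chr7:140900397-140900696, minus strand) has CAGCTG at positions 232 and 267 and TATAAA at position 255, counted from 1 at the 5′ end.
Cox8b: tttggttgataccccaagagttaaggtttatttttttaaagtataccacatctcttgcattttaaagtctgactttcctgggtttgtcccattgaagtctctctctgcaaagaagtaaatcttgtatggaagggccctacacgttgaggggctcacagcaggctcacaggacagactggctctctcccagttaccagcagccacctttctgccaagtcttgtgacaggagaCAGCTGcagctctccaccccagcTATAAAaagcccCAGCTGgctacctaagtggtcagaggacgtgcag
The window of its ubiquitous partner *Cox8a* (chr19:7217567-7217866, minus strand) has the ETS word in reverse at positions 246 and 283 and none of the other words.
Cox8a: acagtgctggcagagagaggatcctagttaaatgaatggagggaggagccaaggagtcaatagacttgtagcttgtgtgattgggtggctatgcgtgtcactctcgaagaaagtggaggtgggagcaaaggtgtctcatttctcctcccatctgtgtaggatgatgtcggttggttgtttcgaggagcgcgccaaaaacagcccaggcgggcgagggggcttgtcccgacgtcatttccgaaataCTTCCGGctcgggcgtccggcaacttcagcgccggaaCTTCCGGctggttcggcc
The window of *Cox6a1* (chr5:115348909-115349208, minus strand) has NRF1 words at positions 89 and 90, which overlap on opposite strands, and at 134, and the ETS word at 235.
Cox6a1: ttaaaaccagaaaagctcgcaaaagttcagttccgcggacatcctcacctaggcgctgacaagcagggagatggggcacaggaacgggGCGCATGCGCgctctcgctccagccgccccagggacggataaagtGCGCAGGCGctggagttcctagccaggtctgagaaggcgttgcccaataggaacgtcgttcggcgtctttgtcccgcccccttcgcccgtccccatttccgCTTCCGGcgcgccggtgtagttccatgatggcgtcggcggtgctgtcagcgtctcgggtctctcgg

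Among the members, 64 of 80 had a window in the table, and 18 of these (28.1%) held the NRF1 word, against 7.03% of the 27025 genes of the table. The ETS word was held by 26.6% of these members and 9.93% of all genes, and the YY1 word by 9.38% and 1.64%. A gene was counted if any of its windows held the word. The 64 members had 69 windows, and the 27025 genes had 32851. CAGCTG was less frequent, in 9.38% of the members and 18.3% of all, and TATAAA was in 12.5% and 15.7%. The member windows were also richer in G and C (57.6%, against 53.8% over all windows). By complex, the NRF1 word was held by 6 of the 29 complex I members with a window and by 2 of 3 of complex II. It was held by 2 of 4 of complex III, 1 of 13 of complex IV and 7 of 15 of complex V. Of the 4 restricted isoforms with a window, none held it. The words are a description of these windows and say nothing of binding, and no test was made of them. Of the 7 members at an unadjusted p under 0.05, 5 had a window: *Sdhb* and *Atp5e* held the ETS word, *Atp5c1* and *Atp5g2* the NRF1 word and *Atp5h* both. These 5 were picked by their p and differ in sign. The share of all members with either word was not computed, so this has no background.

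Complex V, the ATP synthase, had 18 members with a median of 0.02, 10 of them positive. Its 18 members held 4 of the 7 at an unadjusted p under 0.05, with 2 in each direction. Over all genes this share was 5.48% (2.67% higher and 2.8% lower). In the catalytic core, *Atp5b* (the beta subunit) was 12.91, 12.87 and 12.89 in the cKOs against 12.91, 12.87 and 12.94 in wild-type, a difference of -0.02 (interval -0.17 to 0.14). *Atp5a1* (alpha) was 11.92, 11.75 and 11.83 in the cKOs against 11.95, 11.89 and 11.98 in wild-type, with overlap (difference -0.11, SE 0.08, adjusted p = 0.762). In the central stalk, *Atp5d* (delta) differed by 0.00. *Atp5e*, the epsilon subunit of the central stalk, was 8.68, 8.81 and 8.84 in the cKOs against 8.53, 8.49 and 8.46 in wild-type (8.78 ± 0.09 and 8.49 ± 0.04, mean ± SD, n = 3 each). Its log2 fold change of 0.28 (SE 0.07, interval 0.10 to 0.46, unadjusted p = 0.00764, adjusted p = 0.635) had the smallest p of the set, but a second probe set of *Atp5e* gave 0.00. It was 0.33 without cKO replicate 1 and 0.19 with sex as a covariate. *Atp5c1*, the gamma subunit of the same stalk, was lower in the cKOs at 7.28, 7.20 and 7.24 against 7.35, 7.45 and 7.42 in wild-type (log2 fold change -0.17, SE 0.07, unadjusted p = 0.0476, adjusted p = 0.666). Without cKO replicate 1 this difference was -0.19, and with sex as a covariate it was -0.13. *Atp5e* and *Atp5c1* of this stalk thus had opposite signs without overlap in the probe sets used, while *Atp5d* differed by 0.00. The positive value of *Atp5e* rests on 1 of its 2 probe sets.

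The c subunit, which forms the rotor ring, is encoded by *Atp5g1*, *Atp5g2* and *Atp5g3* with different import sequences. *Atp5g2* was 11.02, 11.13 and 11.23 in the cKOs against 10.93, 10.87 and 10.92 in wild-type (log2 fold change 0.22, SE 0.08, unadjusted p = 0.0296, adjusted p = 0.647), and its second probe set gave 0.19. The difference was 0.27 without cKO replicate 1 and 0.11 with sex as a covariate. *Atp5g1* and *Atp5g3* had smaller values of 0.10 and 0.04, with overlap. *Atp5h*, the d subunit of the peripheral stalk, was 11.48, 11.52 and 11.51 in the cKOs against 11.71, 11.71 and 11.61 in wild-type (log2 fold change -0.17, SE 0.07, adjusted p = 0.653), and its second probe set gave -0.45. Without cKO replicate 1 the *Atp5h* difference was -0.16, and with sex as a covariate it was -0.20. The other stalk members *Atp5o* and *Atp5pb* had values of 0.14 and 0.00. The window of *Atp5g2* (chr15:102670998-102671297, minus strand, RefSeq GRCm38.p6) is shown as that of a c subunit gene with similar values from both probe sets. It has the NRF1 word at positions 209 and 210 (in capitals), overlapping on opposite strands.
Atp5g2: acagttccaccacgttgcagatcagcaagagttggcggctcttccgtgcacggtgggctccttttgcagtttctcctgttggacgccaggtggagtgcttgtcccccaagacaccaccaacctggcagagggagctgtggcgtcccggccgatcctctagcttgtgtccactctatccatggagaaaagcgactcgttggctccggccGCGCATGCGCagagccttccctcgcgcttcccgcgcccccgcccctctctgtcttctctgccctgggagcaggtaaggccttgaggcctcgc

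Over the 9 members with a second single-symbol probe set, the sign was shared in 7 and opposite for *Cox7b* and *Ndufa12*. The differences between the probe sets of a gene ranged from 0.00 to 0.28 on the log2 scale. Mean signals of the members ranged from 3.79 to 12.90, and 72 of 80 were above the median of all probe sets (6.47). The other 8 were *Cox6b2*, *Cox7b2*, *Cox8c*, *Ndufa4l2*, the pseudogenes and the ubiquitous subunits *Ndufs5* and *Atp5j2*. Signal over background is not known for these.

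The wider pathway was taken from lists of assembly factors, regulators and neighboring enzymes. None of these genes passed the adjusted test. Among subunits and carriers outside the symbol rule, 9 of 10 were measured with a median of -0.03, and *Cycs*, the somatic cytochrome c, was 11.62, 11.58 and 11.55 in the cKOs against 11.66, 11.62 and 11.67 in wild-type. Of the 13 subunits encoded by mitochondrial DNA, 10 were measured. Of these, 9 had negative fold changes between -0.07 and -0.03, and *COX1*, the catalytic subunit of complex IV, was 13.55, 13.57 and 13.52 in the cKOs against 13.58, 13.59 and 13.66 in wild-type. The other was *ND6*, the only one encoded on the light strand, at 10.11, 10.21 and 8.20 in the cKOs against 7.73, 7.92 and 8.98 in wild-type (log2 fold change 1.30, SE 0.60, adjusted p = 0.687). Its values were split inside both groups, and cKO replicate 3 lay among the wild-type arrays. The difference was 0.99 without cKO replicate 1 and 1.90 with sex as a covariate.

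Assembly factors had medians of -0.05 for complex I (16 of 16 measured), -0.05 for complex II (4 of 4), 0.06 for complex III (6 of 6), -0.02 for complex IV (19 of 22) and 0.09 for complex V (4 of 4). At an unadjusted p under 0.05, the iron-sulfur carrier gene *Nubpl* (-0.23) and *Ndufaf2* (-0.24) were lower for complex I, where 12 of 16 genes had negative values. *Sdhaf2*, needed to attach FAD to SDHA, was 9.21, 9.12 and 9.31 in the cKOs against 9.41, 9.49 and 9.38 in wild-type (log2 fold change -0.21, SE 0.08, adjusted p = 0.651). Among 15 regulators of mitochondrial biogenesis, the median was -0.01, and the coactivator gene *Ppargc1a* was 9.30, 9.34 and 9.26 in the cKOs against 9.38, 9.31 and 9.31 in wild-type. *Esrra*, a nuclear receptor of respiratory genes, was 8.38, 8.47 and 8.49 in the cKOs against 8.18, 8.15 and 8.28 in wild-type (log2 fold change 0.24, SE 0.07, unadjusted p = 0.0147, adjusted p = 0.640). Without cKO replicate 1 the *Esrra* difference was 0.28, and with sex as a covariate it was 0.18. *Tfb1m*, a mitochondrial rRNA methyltransferase, was lower by 0.23 with no overlap (adjusted p = 0.644). Of the TCA cycle genes, 16 of 17 were measured with a median of 0.00, and *Suclg2*, the GTP-forming succinyl-CoA ligase subunit, was 8.49, 8.54 and 8.75 in the cKOs against 8.83, 8.97 and 9.14 in wild-type (log2 fold change -0.39, SE 0.11, unadjusted p = 0.0121, adjusted p = 0.640). Without cKO replicate 1 the *Suclg2* difference was -0.335, and with sex as a covariate it was -0.49.

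**Figure D5:**
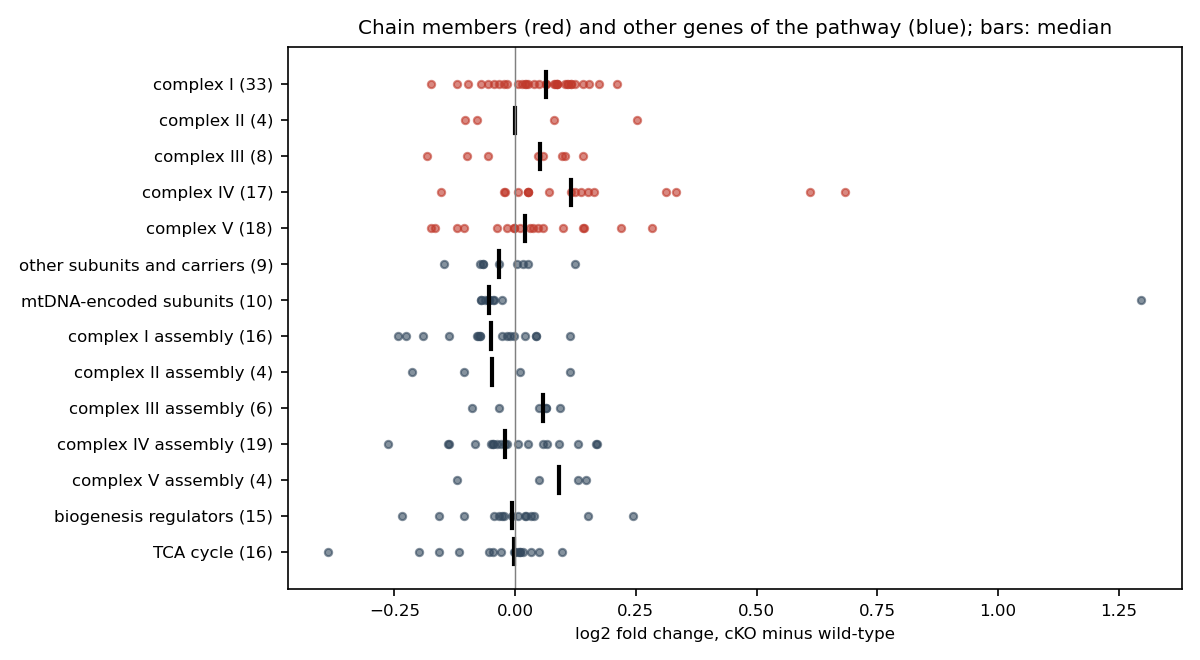
Log2 fold change (cKO minus wild-type, x axis) of the members of each complex (red) and of the other genes of the pathway (blue), each point a gene and each black bar a median, with the number of genes in brackets. Medians lie between -0.05 and 0.12, and the single point at 1.30 is the mitochondrial *ND6*.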

How the data were processed

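The deposited values are log2 signals of 6 Affymetrix Mouse Gene 2.0 ST arrays that the authors background corrected, quantile normalized and summarized with RMA (oligo) and tested with limma (versions not given in the sources used here). The table holds 41345 probe sets with values from 2.35 to 14.03. Raw intensities were not used, so signal over background is unknown, and 3 arrays per group limit the precision.

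Probe sets with exactly 1 gene symbol in the platform annotation were kept for naming, and a gene was represented by its brightest probe set over all arrays. Group was the only term in lmFit and eBayes (limma 3.58.1, R 4.3.3, statmod 1.5.0, default settings, 2-sided) on all probe sets, and the fit was tested on simulated data. Exact permutation tests used all arrangements of 3 against 3 arrays (smallest p 0.1). Members named in full were the isoform pairs, complex II, X-linked and core subunits, and the extremes and up to 3 smallest p values per direction in each complex. *Ndufs4*, *Ndufv3*, *Ndufa11*, *Ndufa12*, *Ndufc1*, *Ndufs5*, *Uqcrh-ps1*, *Atp5pb*, *Atp5j2* and single genes of the other lists were named after their values were seen. Members and lists were chosen with earlier results of these data known. Alternatives were cyclic loess, filters on probe sets, trended and robust moderation, array weights, a replicate block, sex as a covariate, mean of probe sets, subunits proper, and leaving out each array. Labels say that samples were processed in matched groups but not which ones, so no batch was modeled.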

Additional observations from a re-analysis of the deposited data

How the results depend on the processing

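No member was called at an adjusted p under 0.05 or under 0.1 in any of the alternatives. The count of members at an unadjusted p under 0.05, 7 in the report, was 11 with array weights, 3 with the replicate number as a block, 2 with sex as a covariate and 2 to 17 when 1 array was left out. It was 17 without cKO replicate 1, 2 without cKO replicate 2, cKO replicate 3 or wild-type replicate 2, and 3 without wild-type replicate 1 or 3. The replicate numbers did not pair the samples (correlations of -0.04, -0.08 and -0.08 between the deviations of arrays with the same number), so the block carries no design information. The count of members without overlap, 14, was 15 to 41 when 1 array was left out, 41 without cKO replicate 1 (where 31.8% of all genes did not overlap) and 23 without wild-type replicate 1. This count cannot fall when an array is left out. The share of all genes was not computed for the other arrays, so their counts have no background. The median log2 fold change of the members turned negative with sex as a covariate (-0.0167) and was 0.01 to 0.09 when 1 array was left out. The medians of complexes I, III and V were -0.03, -0.04 and -0.01 with sex as a covariate, and that of complex III was -0.05 without cKO replicate 3. The covariate leaves cKO replicate 1 alone to carry the comparison, and the cause of these shifts was not tested. Among 49 named members, 19 changed sign under some alternative (32 of 723 values). The 7 members at an unadjusted p under 0.05 kept their sign in all 104 values, but this was largely fixed in advance. Their groups did not overlap, so leaving out 1 array could not change a sign. Several other alternatives left the fold changes as they were. These 7 were also picked by their p in the same arrays.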
